A study of Mus musculus with 12 samples.

Results

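The ERBB receptors and the EGF-family ligands that bind them were examined in subcutaneous tumors grown from mTc11 cells, a mouse lung cancer cell line. The genes were taken by name, 3 receptor genes (*Egfr*, *Erbb2* and *Erbb3*) and 7 ligand genes (*Areg*, *Ereg*, *Hbegf*, *Tgfa*, *Btc*, *Epgn* and *Egf*). Of these 10 genes, 9 were in the table of 15687 genes, and *Epgn* was not analysed here. ERBB receptors are transmembrane tyrosine kinases that signal in pairs. EGFR binds every ligand of the list, ERBB2 has no known ligand and serves as a partner, and ERBB3, whose kinase is weak, binds neuregulins and pairs mainly with ERBB2. The ligands are made as membrane-anchored precursors that ADAM proteases cut free, and receptor pairs pass the signal to the RAS-ERK and PI3K-AKT pathways. In lung adenocarcinoma, EGFR is a well known oncogene.

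RNA was sequenced from 12 tumors. The CTL group held 6 tumors from cells with a control short hairpin RNA (shControl, genotype given as WT), and the *Filip1l*-knockdown group held 6 tumors from cells with a hairpin against *Filip1l* (*Filip1l* KD). Both groups came from stably transduced mTc11 cells, and cells in Matrigel were injected under the skin of male C57BL6/J mice that were 8 weeks old and had an intact immune system. All tumors were taken on day 24. The study's methods describe mixed clones selected with puromycin and 2 hairpin targets, and do not say which target the sequenced tumors carried. The comparison asks what differs between tumors of the 2 groups, and the labels call the tumors of a group biological replicates. How many separately transduced cell lines each group came from is not stated. Standard errors and p-values therefore measure spread between tumors, not between lines. An effect of the hairpin cannot be told apart from other differences between the injected cell populations.

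Values are normalized counts, reads per gene divided by a size factor of the tumor, and 17834745 to 32419578 reads per tumor fell on listed genes. The mean of *Filip1l* itself was 2311 ± 211 normalized counts in the CTL group and 1924 ± 165 in the knockdown group (SD, n = 6 each), a 1.20-fold lower level (log2 fold change -0.26, standard error 0.07, limma adjusted p = 0.00998), with overlapping groups. The study judged the knockdown by protein, a different measure from RNA of whole tumors. It selected the clones by immunoblot and reported less FILIP1L staining in sections of knockdown tumors. Each library was made from a whole tumor, so RNA of host cells was measured together with that of the injected cells, and fewer cells of a type cannot be told apart from less RNA per cell. The summed level of 8 epithelial markers (*Epcam*, *Cdh1*, *Krt8*, *Krt18*, *Krt19*, *Krt7*, *Cldn4* and *Cldn7*) ran from 149757 to 196608 normalized counts in the CTL group and from 217523 to 397217 in knockdown tumors, and 6 of the 8 were called higher at an adjusted p under 0.05 and a fold change over 2, against 6.2% of all genes. Of 8 lung markers (summed level 1205 to 2946 normalized counts in CTL tumors and 2006 to 3840 in knockdown tumors), *Sftpd* (832 to 2408) and *Napsa* (183 to 293) were the highest in CTL tumors, while the lung-defining *Nkx2-1* (0.947 to 37.3) and *Sftpc* (0 to 53.0) were low. *Filip1l*-knockdown replicate 1 stood apart from its group, with the lowest epithelial sum (217523) and the highest sum of 9 fibroblast markers (254952, against 75846 to 159659 in the other 5 tumors). In CTL tumors the fibroblast sum ran from 161794 to 264679. Replicate 1 lay within that range and the other 5 knockdown tumors lay below it. The part of these and other cell markers in the results for receptors and ligands was not tested.

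A run of ligand genes lies together on mouse chromosome 5 (build GRCm38): *Epgn*, *Ereg*, *Areg* and *Btc* span 376 kb, with 46.0 kb between *Ereg* and *Areg* and 209 kb between *Areg* and *Btc*. The 250 bases before the start of *Areg* and of *Btc* are shown because these neighbours differed in opposite directions between the groups. They were copied from RefSeq on GRCm38.p6, chr5:91139349-91139598 on the + strand for *Areg* and chr5:91402995-91403244 on the - strand for *Btc*, and are printed 5′ to 3′ on the gene's strand. Capitals mark a cyclic AMP response element (CRE, TGACGTCA).
Areg: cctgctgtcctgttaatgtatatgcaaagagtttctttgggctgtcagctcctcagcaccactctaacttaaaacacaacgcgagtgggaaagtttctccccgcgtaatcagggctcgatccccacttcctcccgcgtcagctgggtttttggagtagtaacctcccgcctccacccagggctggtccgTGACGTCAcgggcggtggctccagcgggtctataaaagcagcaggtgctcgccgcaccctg
Btc: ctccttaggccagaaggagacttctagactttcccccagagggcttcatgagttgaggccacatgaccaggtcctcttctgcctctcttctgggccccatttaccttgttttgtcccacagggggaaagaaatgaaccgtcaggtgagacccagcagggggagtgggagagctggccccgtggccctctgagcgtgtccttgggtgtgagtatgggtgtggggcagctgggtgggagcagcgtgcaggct
The element in *Areg* lies from base -61 to base -54 counted from the start of the gene. Both strands of the promoter window, 250 bases before to 50 after the start, were searched for the CRE, for the AP-1 site TGANTCA and for the TCF core CTTTGA. Of 32851 promoter windows of this length, 1.79% held the CRE, 7.81% the AP-1 site and 16.0% the TCF core. Among the 7 listed genes with a promoter entry, the CRE was found in *Areg* and the TCF core in *Epgn*, and none of the 3 motifs was found in the window of *Btc*. A match of letters is a description and not evidence that a factor binds there.

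None of the 9 genes was called at both thresholds used by the study (adjusted p under 0.05 and a fold change over 2, that is over 1 on the log2 scale), where 10.2% of all genes were called by limma (6.2% higher and 3.97% lower). The count was also 0 with edgeR, which called 10.4% of all genes, and with DESeq2 (10.5%), both on recovered reads. At an adjusted p under 0.05 and any fold, 6 of the 9 genes passed, 4 higher and 2 lower, against 41.9% of all genes (21.1% higher and 20.7% lower). edgeR and DESeq2 each also passed 6, against 42.2% and 44.4% of all genes. Higher in knockdown tumors were *Egfr*, *Erbb3*, *Areg* and *Ereg*, and lower were *Hbegf* and *Btc*. At an unadjusted p under 0.05 the limma fit passed 6 of the 9 genes, edgeR 7 and DESeq2 6, against 49.1% of all genes in the limma fit. The median absolute log2 fold change was 0.52 over the 9 genes and 0.253 over all genes.

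**Figure D1:**
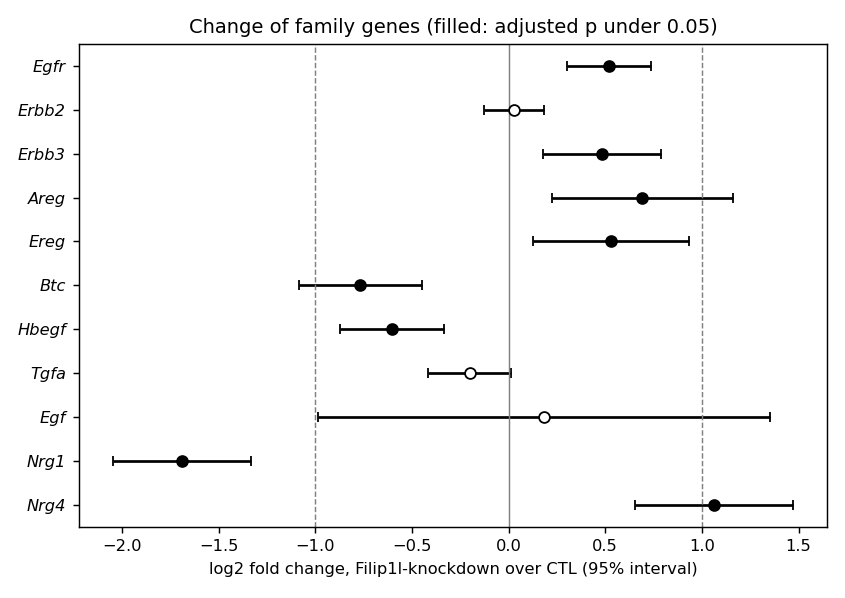
Log2 fold change of each receptor and ligand gene, and of the neuregulins *Nrg1* and *Nrg4*, in *Filip1l*-knockdown over CTL tumors (x axis), with the 95% interval of the limma fit. Filled points have an adjusted p under 0.05 and dashed lines mark a fold change of 2 in either direction; *Egfr*, *Erbb3*, *Areg* and *Ereg* lie to the right of 0, *Btc* and *Hbegf* to the left, and *Nrg1* (-1.69) and *Nrg4* (1.06) lie beyond the dashed lines.

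Among the receptors, *Egfr* and *Erbb3* were higher in knockdown tumors and *Erbb2* was nearly level. *Egfr* (ENSMUSG00000020122, chromosome 11, 16752203 to 16918158, + strand), which encodes the receptor shared by the EGF-like ligands, had 1402 normalized counts in the lowest CTL tumor, a median of 1993 and 2178 in the highest. In knockdown tumors it had 2248 in the lowest, a median of 2846 and 3034 in the highest. Every knockdown tumor thus lay above every CTL tumor, and *Egfr* was the 1 gene of the 9 whose groups did not overlap, a separation that 21.5% of all genes showed (10.6% higher and 10.9% lower). Means were 1920 ± 269 and 2741 ± 288 (SD, n = 6 each), a 1.43-fold difference (log2 fold change 0.52, standard error 0.10, 95% interval 0.30 to 0.74, limma adjusted p = 0.000931). A two-sided exact permutation test gave p = 0.00216, the smallest that the arrangements of 12 labels allow. The study also measured *Egfr* by quantitative PCR in tumors of this model, so its direction here is not independent evidence.

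*Erbb3* (ENSMUSG00000018166, chromosome 10, 128567523 to 128589652, - strand), the receptor with a weak kinase, had a lowest value of 1437, a median of 1661 and a highest value of 2191 normalized counts in CTL tumors. The corresponding values in knockdown tumors were 1865, 2490 and 3156. All 6 knockdown tumors were above the CTL median, and CTL replicates 5 and 6 (2191 and 2129) overlapped the lower knockdown tumors. The mean was 1.40-fold higher (log2 fold change 0.48, standard error 0.14, limma adjusted p = 0.0141), and the exact permutation test gave p = 0.0195. *Erbb2* (ENSMUSG00000062312, chromosome 11, 98412470 to 98437716, + strand), the partner receptor without a ligand, had the narrowest spread of the 9 genes in CTL tumors relative to its mean, from 3739 to 4088 normalized counts with a median of 3907. It ran from 3237 to 4663 with a median of 4091 in knockdown tumors. The log2 fold change was 0.03, with a 95% interval of -0.13 to 0.18, and did not pass (limma adjusted p = 0.802).  The direction of *Erbb2* is not set by these data, since it turned to -0.02 when every tumor was scaled to the same total. A few bases of the last exon of *Erbb2* overlap *Mien1* on the other strand, and the sources do not state whether reads were counted by strand.

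**Figure D2:**
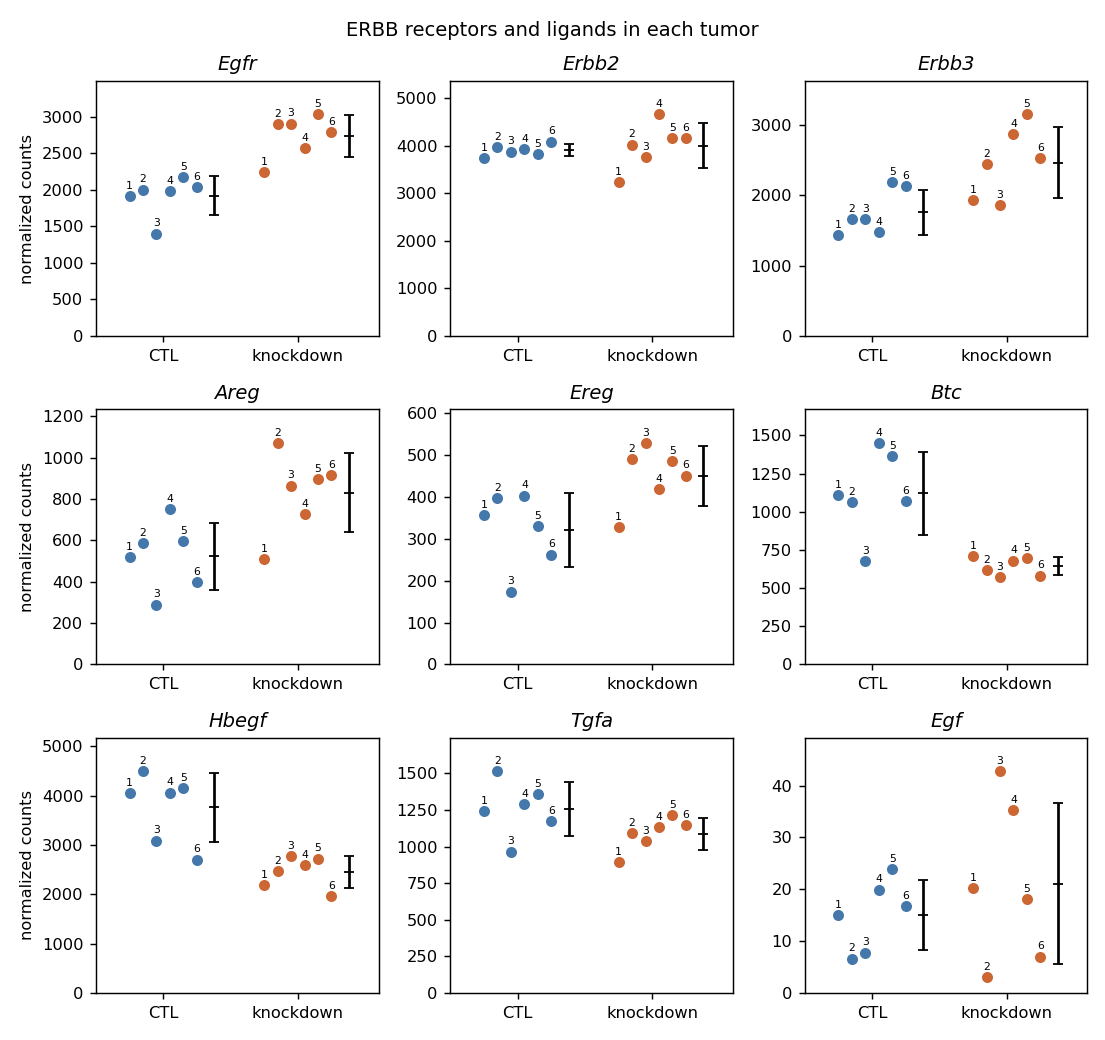
Normalized counts (y axis, from 0) of the 3 receptor and 6 ligand genes in each of the 6 CTL and 6 knockdown tumors, numbered by replicate, with the group mean and SD as a black bar. In the *Egfr* panel every knockdown tumor sits above every CTL tumor, in the *Btc* panel the knockdown tumors sit within 573 to 712, and CTL replicate 3 is the lowest CTL tumor for *Egfr*, *Areg*, *Ereg*, *Tgfa* and *Btc*.

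The neighbouring ligand genes on chromosome 5 split, with *Areg* and *Ereg* higher and *Btc* lower in knockdown tumors. *Areg* (ENSMUSG00000029378, 91139599 to 91148432, + strand) encodes amphiregulin, a ligand of EGFR alone. Its normalized counts had a lowest value of 290, a median of 553 and a highest value of 753 in CTL tumors, and 509, 881 and 1072 in knockdown tumors. The groups overlapped, and 5 of 6 knockdown tumors were above the CTL median, the exception being replicate 1 (509). Means were 524 ± 163 and 831 ± 193 (SD, n = 6 each). On log2 values the difference was 1.62-fold (log2 fold change 0.69, standard error 0.22, 95% interval 0.23 to 1.16, limma adjusted p = 0.0196, exact permutation p = 0.0238). When the trend with GC content and transcript length was removed from each tumor, an alternative chosen after seeing the data, the log2 fold change of *Areg* was 0.46 and no longer passed (limma adjusted p = 0.0913).

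*Ereg* (ENSMUSG00000029377, 91074622 to 91093646, + strand) encodes epiregulin, a ligand of EGFR and ERBB4. It had a lowest value of 174, a median of 344 and a highest value of 404 normalized counts in CTL tumors, and 328, 469 and 530 in knockdown tumors. Again 5 of 6 knockdown tumors were above the CTL median, with replicate 1 (328) below it. *Ereg* was 1.44-fold higher (log2 fold change 0.53, standard error 0.19, limma adjusted p = 0.0363), with an exact permutation p = 0.0216. Of the 6 calls it was the least stable, since it was lost in 5 of the 12 fits that each left out 1 tumor, namely CTL replicate 6 and *Filip1l*-knockdown replicates 2, 3, 5 and 6, with limma adjusted p from 0.0599 to 0.0762, and in a limma fit without a variance trend (adjusted p = 0.0530). Leaving out CTL replicate 3 gave 0.37. An antisense gene, *Gm19610*, overlaps the first exon of *Ereg* and was listed with 66.2 ± 13.7 normalized counts in the CTL group and 42.0 ± 10.1 in the knockdown group (SD, n = 6 each), so reads of the pair may not be separable.

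*Btc* (ENSMUSG00000082361, 91357261 to 91402994, - strand), which encodes betacellulin, a ligand of EGFR and ERBB4, had the lowest CTL value at 679 normalized counts, a CTL median of 1088 and a highest CTL value of 1452. knockdown tumors lay between 573 and 712 with a median of 648. CTL replicate 3 (679) was the 1 CTL tumor within the knockdown range, and all 6 knockdown tumors were below the CTL median. Means were 1123 ± 272 and 644 ± 60.6 (SD, n = 6 each). On log2 values the level was 1.70-fold lower (log2 fold change -0.77, standard error 0.15, 95% interval -1.08 to -0.45, limma adjusted p = 0.000832, exact permutation p = 0.00866). Leaving out CTL replicate 3 gave -0.90.

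Of the ligands on other chromosomes, *Hbegf* was lower in knockdown tumors, and *Tgfa* and *Egf* did not pass. *Hbegf* (ENSMUSG00000024486, chromosome 18, 36504927 to 36515805, - strand), heparin-binding EGF-like growth factor, had a lowest value of 2702, a median of 4057 and a highest value of 4495 normalized counts in CTL tumors. In knockdown tumors the values were 1965, 2532 and 2774. CTL replicate 6 (2702) was the 1 CTL tumor inside the knockdown range. Means were 3760 ± 700 and 2451 ± 319 (SD, n = 6 each). On log2 values the level was 1.52-fold lower (log2 fold change -0.60, standard error 0.13, limma adjusted p = 0.00146), and an exact permutation test gave p = 0.00649.

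*Tgfa* (ENSMUSG00000029999, chromosome 6, 86195223 to 86275719, + strand), transforming growth factor alpha, had medians of 1265 and 1111 normalized counts in CTL and knockdown tumors, within 966 to 1515 and 897 to 1217. Its log2 fold change of -0.20 (95% interval -0.42 to 0.01) did not pass (limma adjusted p = 0.124, exact permutation p = 0.0952), although all 6 knockdown tumors were below the CTL median. It passed when CTL replicate 3, the lowest CTL tumor, was left out (-0.28, limma adjusted p = 0.0203). *Egf* (ENSMUSG00000028017, chromosome 3, 129677565 to 129755316, - strand), the name-giving growth factor, was close to the detection limit, from 6.63 to 23.9 normalized counts in CTL tumors (median 15.9) and from 3.12 to 42.8 in knockdown tumors (median 19.2). The lowest *Egf* value, in knockdown replicate 2, equals 3 reads. The 95% interval of its log2 fold change, -0.99 to 1.35, covers a 2-fold rise and nearly a loss of the same size, so no difference was detectable at this depth (limma adjusted p = 0.820).

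To compare genes with one another, normalized counts were divided by the summed exon length of the gene. In CTL tumors the mean level per kb was highest for *Hbegf* (778) and *Erbb2* (750), then came *Areg* (431), *Erbb3* (293), *Btc* (248), *Tgfa* (194), *Egfr* (170), *Ereg* (77.7) and *Egf* (1.33). Ranges of neighbours in this order overlapped except between *Erbb2* and *Areg*, between *Egfr* and *Ereg*, and between *Ereg* and *Egf*. In knockdown tumors *Erbb2* (768) and *Areg* (684) came first, followed by *Hbegf* (507), *Erbb3* (410), *Egfr* (242), *Tgfa* (168), *Btc* (142), *Ereg* (109) and *Egf* (1.87). There the neighbours *Erbb3* and *Egfr*, *Egfr* and *Tgfa*, and *Ereg* and *Egf* were separate. With the length of the longest transcript in place of all exons, the CTL order was kept for 9 of 9 genes, and in knockdown tumors *Hbegf* (848) came before *Erbb2* (799) and *Areg* (684), all 3 with overlapping neighbours.

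The makeup of the ligand transcripts can be read as the share of each ligand in the summed level per kb of the 6 ligands. *Hbegf* held 45.3% ± 4.48 in CTL tumors and 31.7% ± 3.96 in knockdown tumors (SD, n = 6 each). *Areg* held 24.5% ± 3.28 and 42.0% ± 5.69, with CTL tumors between 19.6% and 29.8% and knockdown tumors between 33.6% and 48.6%. By these lengths the largest mean share was that of *Areg* in knockdown tumors and of *Hbegf* in CTL tumors, although in knockdown replicate 1 *Hbegf* (36.2%) was above *Areg* (33.6%). *Btc* went from 14.4% ± 2.09 to 9.02% ± 1.95, *Ereg* from 4.44% ± 0.550 to 6.76% ± 0.425, *Tgfa* from 11.4% ± 1.29 to 10.5% ± 0.901, and *Egf* stayed below 0.223% in every tumor. With longest transcript lengths the *Areg* share was 17.9% in CTL and 33.1% in knockdown tumors, and *Hbegf* (55.1% and 41.6%) was the largest share in both groups.

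**Figure D3:**
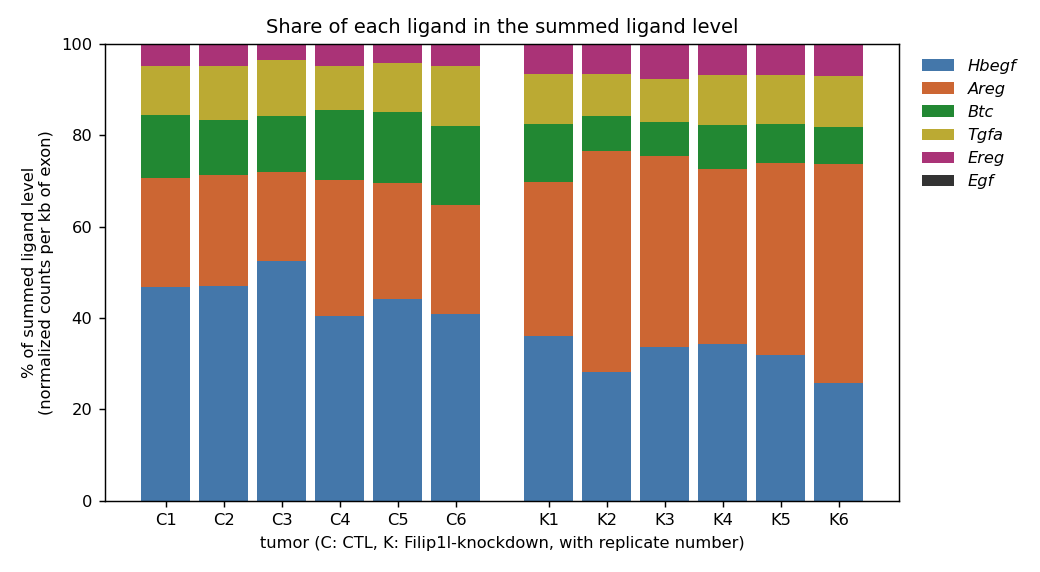
Share of each of the 6 ligands in the summed ligand level of each tumor (y axis, percent of normalized counts per kb of exon), stacked by ligand, for CTL replicates 1 to 6 (C1 to C6) and *Filip1l*-knockdown replicates 1 to 6 (K1 to K6). The *Areg* band covers 19.6% to 29.8% in CTL tumors and 33.6% to 48.6% in knockdown tumors, and the *Btc* and *Hbegf* bands are thinner in most knockdown tumors.

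Ratios between genes within a tumor do not depend on a scaling factor shared by all genes of the tumor. They can depend on corrections that differ by gene. With the GC and length trend removed, the log2 fold change was 0.46 for *Areg* and -0.75 for *Btc*, and ratios were not computed on those values. The ratios were chosen after the values had been seen and carry no test. The ratio of *Areg* to *Btc* normalized counts ran from 0.372 to 0.552 in CTL tumors (median 0.453) and from 0.715 to 1.74 in knockdown tumors (median 1.40), with no overlap. The *Ereg* to *Btc* ratio was also separate, 0.242 to 0.373 against 0.460 to 0.925. In contrast, *Areg* to *Ereg* ratios overlapped, 1.45 to 1.86 in CTL tumors and 1.55 to 2.18 in knockdown tumors. The *Egfr* to *Erbb2* ratio was 0.362 to 0.570 in CTL tumors and 0.551 to 0.772 in knockdown tumors, an overlap of a narrow strip.

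Whether the neighbouring ligand genes varied together was examined on log2 values within each group of 6 tumors, as 6 correlations adjusted together. In CTL tumors *Areg* and *Ereg* had Pearson r = 0.949 (exact permutation p = 0.00833, adjusted p = 0.025) and Spearman rho = 0.829 (exact permutation p = 0.0583, adjusted p = 0.175). Without the 2 tumors farthest from the median of *Areg*, r was 0.541, so the relation rests in large part on those tumors. *Areg* and *Btc* in CTL tumors had r = 0.918 (exact permutation p = 0.00833, adjusted p = 0.025) and rho = 0.829 (exact permutation p = 0.0583, adjusted p = 0.175), and r = 0.778 without the 2 farthest tumors. In knockdown tumors *Areg* and *Ereg* had r = 0.898 (exact permutation p = 0.0292, adjusted p = 0.0583) and rho = 0.60 (exact permutation p = 0.242, adjusted p = 0.290), and r = 0.595 without the 2 farthest tumors. For *Areg* and *Btc* in knockdown tumors r was -0.63 (exact permutation p = 0.172, adjusted p = 0.172) and rho -0.49 (exact permutation p = 0.356, adjusted p = 0.356). For *Ereg* and *Btc*, r was 0.845 in CTL tumors (exact permutation p = 0.0542, adjusted p = 0.0813; rho 0.60, adjusted p = 0.290) and -0.66 in knockdown tumors (exact permutation p = 0.133, adjusted p = 0.160; rho -0.71, adjusted p = 0.272). Without the 2 farthest tumors these were -0.08 and -0.09. Whether the correlations differ between the groups was not tested. CTL replicate 3 was the lowest CTL tumor for 5 of the 9 genes and *Filip1l*-knockdown replicate 1 the lowest knockdown tumor for 5 of the 9, *Egfr*, *Areg*, *Ereg* and *Tgfa* being shared.

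For each gene, the genes with the most similar pattern were taken among 12888 genes that averaged at least 50 normalized counts, by Pearson r over the 12 tumors after the group means were removed. These values are a description, the points share library and scaling, and no p is given. The gene most like *Egfr* was the chemokine gene *Cxcl5* (r = 0.956), followed by *Afg3l2* (0.949) and *Vldlr* (0.910). For *Erbb2* they were *Sema6b* (0.978), *Sema3b* (0.940) and *Elp3* (0.926), and for *Erbb3* the tight junction genes *Cgn* (0.938) and *Patj* (0.935) and then *Lzts3* (0.918). *Areg* was most like *Pip5k1b* (0.939), *Blzf1* (0.937) and *Serpinb8* (0.930). *Ereg* was most like *Ugdh* (0.931), *Wbp4* (0.926) and its neighbour *Areg* (0.922). For *Hbegf* the genes were *Ackr3* (0.927), *Pls3* (0.923) and *Epha2* (0.913), and for *Tgfa* they were *Fblim1* (0.918) and *Krt80* (0.917). *Btc* had *Tspan12* (0.904), *Synpr* (0.875) and *Prkg2* (0.875), and *Egf* had *Cox6a2* (0.924) and *Jph1* (0.914).

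The neuregulins, ligands of ERBB3 or ERBB4 that were outside the list, moved further than any of its 9 genes, and in opposite directions. Of *Erbb4*, *Nrg1*, *Nrg2*, *Nrg3* and *Nrg4*, only the genes *Nrg1* and *Nrg4* were analysed here. Over all genes, 10.2% were called at both thresholds and 21.5% had groups that did not overlap. *Nrg1* had 376 to 474 normalized counts in CTL tumors (median 450) and 87.3 to 210 in knockdown tumors (median 137), with no overlap. The level was 3.23-fold lower, or -1.69 on the log2 scale (standard error 0.17, limma adjusted p = 3.05e-06), with an exact permutation p = 0.00216. *Nrg1* lies on chromosome 8, where the median of all genes shifted by -0.20 on the log2 scale between the groups, and with chromosome medians removed its log2 fold change was -1.49. *Nrg4* had 66.3 to 151 normalized counts in CTL tumors (median 107) and 174 to 258 in knockdown tumors (median 226), again with no overlap. The level was 2.09-fold higher, or 1.06 on the log2 scale (standard error 0.19, limma adjusted p = 0.000494). It was 0.95 with the GC and length trend removed, and *Nrg4* was also under the fold threshold without CTL replicate 2 or CTL replicate 4. Reads of *Nrg4* may include *Fbxo22*, whose exons overlap it on the other strand. The ratio of *Nrg1* to *Nrg4* normalized counts was 2.66 to 5.67 in CTL tumors and 0.339 to 1.20 in knockdown tumors.

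Among genes that release the ligands or meet the receptors at the membrane, *Adam12* was called lower and *Muc4* higher. Of 9 ligand shedding genes, ADAM proteases and inactive rhomboids that govern ADAM17, 1 passed as higher and 4 as lower at adjusted p under 0.05, and the median of the log2 fold changes was -0.07 (that of all genes was 0.0078, and 21.1% passed as higher and 20.7% as lower). *Adam9*, on chromosome 8, was among the 4 lower genes at -0.20. With chromosome medians removed it was at -0.0057 and did not pass (limma adjusted p = 0.938), and 3 genes of the list passed as lower. The main ligand sheddases *Adam10* (log2 fold change 0.03, limma adjusted p = 0.664) and *Adam17* (-0.07, limma adjusted p = 0.398) did not pass. *Adam12*, a protease able to shed HB-EGF, was the 1 gene called at both thresholds, from 738 to 1591 normalized counts in the CTL group and from 338 to 705 in knockdown tumors (-1.18, limma adjusted p = 0.000323). At both thresholds 3.97% of all genes were called lower and 6.2% higher. Of 5 membrane partners (*Muc1*, *Muc4*, *Cd9*, *Cd82* and *Cd44*), *Muc4*, a transmembrane mucin that binds ERBB2, was called higher, from 382 to 1663 normalized counts in the CTL group and from 3145 to 5395 in knockdown tumors (2.39, limma adjusted p = 2.61e-05), and *Cd9* passed as lower (-0.23, limma adjusted p = 0.0107). *Muc4* was measured by the study in these tumors, so its direction is not independent evidence.

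A list of 19 genes was drawn up as feedback inhibitors of the receptors and of RAS-ERK signaling, and whether each of them inhibits was not tested. Of these, 2 passed as higher and 9 as lower, against 21.1% and 20.7% of all genes. The median log2 fold change was -0.25, against 0.0078 over all genes. *Lrig3*, of a family of receptor-binding membrane proteins, was called lower at both thresholds, from 200 to 327 normalized counts in the CTL group and from 50.1 to 169 in knockdown tumors (-1.59, limma adjusted p = 0.000185). It was the 1 gene of the 19 called so, where 3.97% of all genes were called lower and 6.2% higher. Named after their values were seen, the Sprouty genes *Spry1* (-0.95, limma adjusted p = 5.36e-07) and *Spry4* (-0.88, limma adjusted p = 1.6e-05), both ERK-induced inhibitors, had groups that did not overlap. Of all genes, 21.5% showed such a separation (10.6% higher and 10.9% lower). *Lrig3*, *Errfi1*, *Spred1*, *Spred2* and *Socs5* were also lower without overlap, and the groups of the other genes of the list overlapped. *Spry2* (-0.02) and *Dusp6* (-0.15), which encodes an ERK phosphatase, did not pass. *Errfi1*, which encodes a direct inhibitor of EGFR, was also lower (-0.35, limma adjusted p = 0.00655), while *Cblc*, a ubiquitin ligase gene, was higher (0.80, limma adjusted p = 0.00182). *Socs4*, on chromosome 14, and *Dusp5*, on chromosome 19, no longer passed when chromosome medians, shifted by 0.38 and -0.36 there, were removed. Over the alternatives the count of lower feedback genes ran from 8 to 12.

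Of 25 genes that relay the signal from the receptors, 4 passed as higher and 7 as lower, shares near the 21.1% and 20.7% of all genes, and the median log2 fold change was -0.05. *Gab1*, a docking protein of receptor kinases, was called lower at both thresholds, from 423 to 545 normalized counts in the CTL group and from 157 to 292 in knockdown tumors (-1.26, limma adjusted p = 5.59e-06). It lies on chromosome 8 and was at -1.07 with chromosome medians removed (limma adjusted p = 2.8e-05). *Gab1* was the 1 gene of the 25 called at both thresholds, where 3.97% of all genes were called lower and 6.2% higher. Of 19 genes known to respond to ERK, 2 passed as higher and 7 as lower, again against 21.1% and 20.7% of all genes, with a median of -0.12. At both thresholds 1 of the 19 was called higher and 4 lower, against 6.2% and 3.97% of all genes. *Fos*, an immediate early factor, was called higher, from 1133 to 1534 normalized counts in the CTL group and from 2619 to 4071 in knockdown tumors (1.31, limma adjusted p = 6.13e-07). *Egr3* (-1.17, limma adjusted p = 0.00172), *Fosl1* (-1.09, limma adjusted p = 5.5e-06) and *Epha4* (-1.06, limma adjusted p = 4.21e-06) were called lower, and so was *Etv5* (-1.06, limma adjusted p = 4.22e-07), an ETS factor named after its values were seen. Without *Filip1l*-knockdown replicate 6, *Epha4* and *Etv5* were under the fold threshold and 2 genes of the list were called lower in place of 4, and *Epha4* was also under it with the GC and length trend removed. *Fosl1* lies on chromosome 19 and was at -0.73 once chromosome medians were removed. *Junb*, on chromosome 8, passed as lower at -0.40, but not with chromosome medians removed (-0.20, limma adjusted p = 0.1235). *Egr1* (0.10), *Ier2* (0.10) and *Myc* (-0.15) did not pass.

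**Figure D4:**
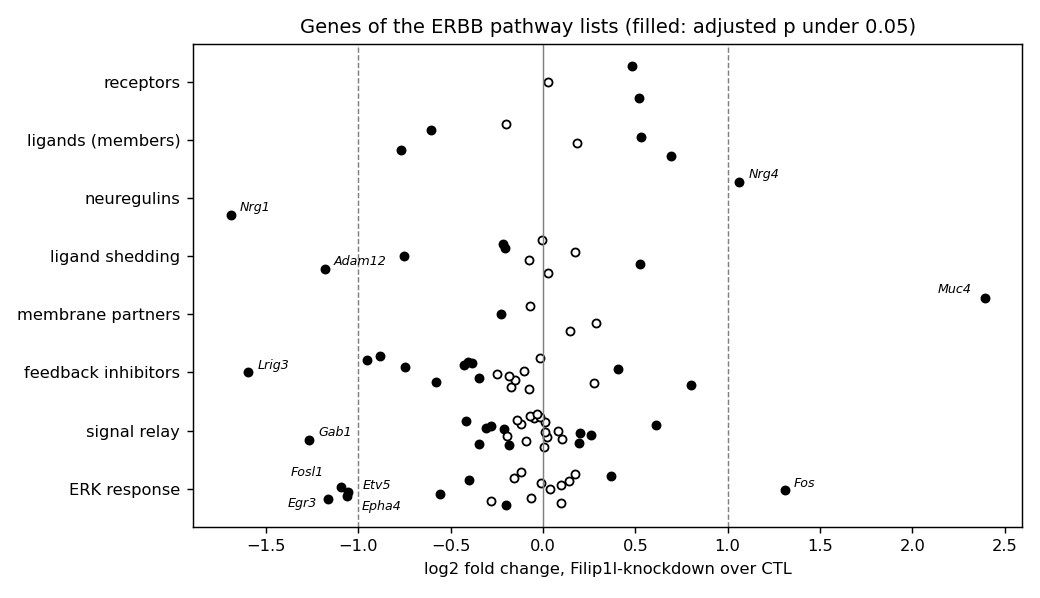
Log2 fold change (x axis) of each gene of the receptor, ligand, neuregulin and pathway lists (y axis, 1 row per list), in *Filip1l*-knockdown over CTL tumors; filled points have a limma adjusted p under 0.05 and dashed lines mark a fold change of 2. Of the 79 pathway genes outside the 9, 11 passed as higher and 29 as lower, against 21.1% and 20.7% of all genes, and the labelled genes are those beyond the dashed lines.

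The genes around the ligand cluster were looked at after the cluster's own values had been seen. Within 500 kb of it, the genes listed besides *Ereg*, *Areg* and *Btc* were *Rassf6*, 7 chemokine genes, *Mthfd2l*, *Gm19610* and *Parm1*. *Cxcl5* (log2 fold change 2.41, limma adjusted p = 9.31e-09), *Cxcl3* (1.22) and *Cxcl2* (1.10), which encode attractants of neutrophils, were called higher and *Pf4* passed as higher (0.78), while *Cxcl1* (-0.12), *Ppbp* (-0.02) and *Cxcl15* (-0.08) did not pass. *Mthfd2l*, between the chemokine genes and *Epgn*, passed as lower (-0.50), and *Parm1*, beyond *Btc*, passed as higher (0.27, limma adjusted p = 0.0347). *Areg* and *Ereg* thus lie between neighbours that differ in either direction, and the median of all chromosome 5 genes shifted by -0.01.

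**Figure D5:**
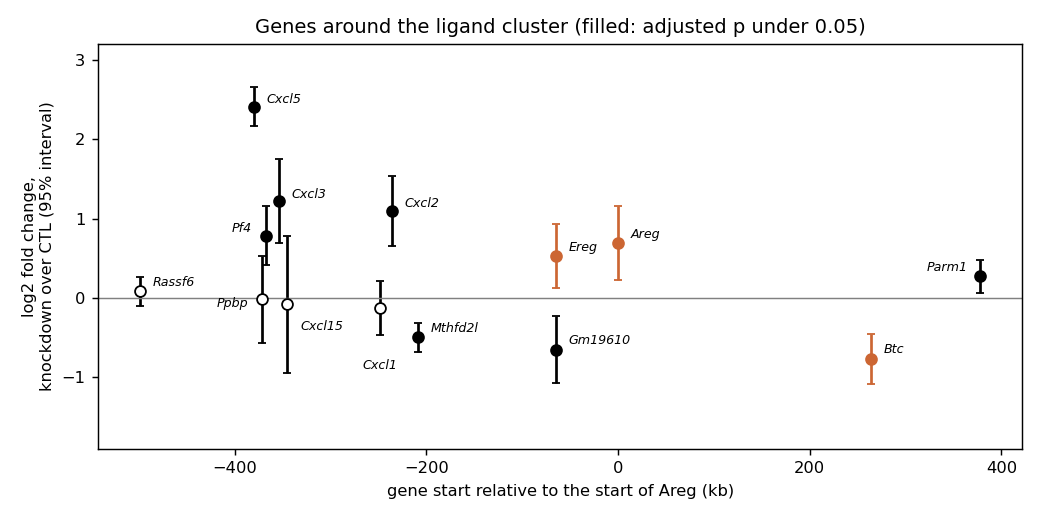
Log2 fold change with its 95% interval (y axis) of the genes within 500 kb of the ligand cluster, by the distance of their start from the start of *Areg* in kb (x axis); ligand genes are orange, and filled points have a limma adjusted p under 0.05. *Cxcl5* is the highest at 2.41, *Ereg* and *Areg* are above 0, and *Btc* and *Gm19610* are below it.

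Markers of other cell types also differed between the groups. Over all genes, 6.2% were called higher and 3.97% lower at both thresholds, and 21.1% and 20.7% passed at adjusted p alone. Of 7 neutrophil markers, 6 were called higher, with sums of 312 to 383 normalized counts in CTL tumors and 767 to 1256 in knockdown tumors. Of 8 skeletal muscle markers, 7 were called higher (sums of 2256 to 12435 and 5155 to 90093). Of 6 endothelial markers, 5 passed as higher and 0 were called at both thresholds (sums of 2487 to 3058 and 3111 to 4891). Of 9 fibroblast markers, 3 passed as lower and 0 were called at both thresholds (sums of 161794 to 264679 and 75846 to 254952). Counts called higher and lower were 0 and 0 of 9 macrophage markers, 0 and 0 of 6 T cell markers, 1 and 0 of 7 mast cell and basophil markers, 1 and 1 of 8 lung markers, 2 and 0 of 4 adipocyte markers, and 0 and 1 of 5 keratinocyte markers. With CTL replicate 5, the shallowest library, and *Filip1l*-knockdown replicate 1 left out together, the same number of receptor and ligand genes passed, 6 of 9, with *Areg* at 0.88, *Ereg* at 0.64, *Erbb3* at 0.61, *Egfr* at 0.61, *Hbegf* at -0.54 and *Btc* at -0.73.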

How the data were processed

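Poly(A) RNA of 12 snap-frozen tumors, 6 per group, was sequenced by the authors as paired reads. Per the study's methods and the submitters' processing notes, reads were trimmed (Trimmomatic 0.36), aligned with STAR 2.5.2b, counted per gene with featureCounts of Subread 1.5.2 and divided by DESeq2 size factors. The notes name mm10, and whether counting used strand is not given in the sources used here. The deposited values are a normalized signal, not corrected for length. They were whole multiples, within a tolerance of 0.001, of the value of 1 read in each tumor for 100% of values, so reads were recovered for count tests as alternatives and for depth. In 3 tumors that value lies within 1% of 1. The precision of low values follows from these reads, which carry no molecular identifiers, so floors of 3 reads cover counting error only.

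Groups were compared on log2(normalized count + 1) with limma 3.58.1 in R 4.3.3 (variance trend, Benjamini-Hochberg adjustment over 15687 genes). Fold changes are on that scale and understate the change of low genes. A filter at a mean of 5 removed 0 genes. Single genes were also tested by exact permutation (two-sided, every arrangement of the group labels). edgeR 4.0.16 quasi-likelihood tests and DESeq2 1.42.0 were alternatives, as were pseudocounts of 0.5 and 8, no filter or one at a mean of 20, other scalings, limma without trend, the replicate block, chromosome medians removed and each tumor left out. Removal of GC and length trends and leaving out a pair of tumors were added after seeing the data. For positions the annotation was GENCODE vM21 (GRCm38), in which 15661 of 15687 identifiers (99.8%) matched, and promoters were those of RefSeq. The steps were tested on simulated data. Python 3.11.15 with matplotlib 3.10.9 drew the figures.

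The genes and lists were chosen with earlier results of these data known. Named were each receptor and ligand gene, the neuregulins, up to 4 called genes per pathway list with the largest change (or, with none called, 2 with the smallest adjusted p), 3 genes most like each receptor or ligand gene, and *Filip1l*. Other named genes were added after their values were seen. A few results that these rules name are not reported here. No tumor was left out of the main comparison, and replicate numbers were not used as pairs.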

Additional observations from a re-analysis of the deposited data

Results flagged for a closer look

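*Egfr* in CTL replicate 3 had 1402 normalized counts, set apart from the other 5 CTL tumors, which ran from 1916 to 2178. The gap to the nearest of them was 0.663 of the range of the group, above Dixon's 95% critical value for 6 samples. Of the 24 groups examined this way, 1 was set apart so, and chance alone gives about 1 in 20. Without this tumor the log2 fold change of *Egfr* was 0.43 (limma adjusted p = 0.000491).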

How the results depend on the processing

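Most values of the 9 receptor and ligand genes held their direction and their side of an adjusted p of 0.05 over 25 alternatives, namely other pseudocounts, filters, scalings, tools, removal of chromosome medians or of GC and length trends, the replicate block and leaving out tumors. Of the 9 genes, 0 were called at both thresholds in any of them. The number at an adjusted p under 0.05 was 5 to 6 over 13 alternatives, and 5 to 7 over 12 fits with 1 tumor left out. The log2 fold change of *Erbb2* turned to -0.0077 with chromosome medians removed, to -0.0151 with every tumor scaled to the same total and to -0.0193 without *Filip1l*-knockdown replicate 4 (-0.0193 to 0.0860 with 1 tumor left out). That of *Egf* turned to -0.0057 without CTL replicate 2, to -0.0965 without *Filip1l*-knockdown replicate 3 and to -0.0420 without *Filip1l*-knockdown replicate 4 (-0.0965 to 0.585 with 1 tumor left out). The cause was not tested. The number of the 6 neighbour correlations with an adjusted p under 0.05 was 2, with 3 when every tumor was scaled to the same total and 1 with the GC and length trend removed, an alternative chosen after seeing the data. With the replicate block, a fit with the replicate number as a term, 5 of the 9 genes passed, *Ereg* being lost (limma adjusted p = 0.0640), and 1554 of all genes were called against 1596. The labels do not say that a replicate number marks a shared cage, day or batch, and tumors sharing a number had correlations of -0.269 to 0.0990, with 0 of 6 closest to its own number. Depth limits *Egf*, at 3.12 to 42.8 normalized counts. A difference near 0 is not shown to be absent by a p that misses the threshold. Of all genes, 1352 to 1732 were called over the alternatives and 1513 to 1713 over the fits that left out 1 tumor, and of the pathway genes 10 to 11 and 9 to 11, against 11.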
